A study of Homo sapiens with 8 samples.

Results

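The actin isoforms are 6 genes, ACTA1, ACTA2, ACTB, ACTC1, ACTG1 and ACTG2, which code for the 6 conventional actins of human cells. They were read on the arrays by 7 of the 58162 probes, 2 for ACTB and 1 for each of the others, chosen by the RefSeq identifier of the probe, and they are 6 of the 22428 genes named on the array. The group was picked because ACTA2 and ACTG2 were far lower with simvastatin than with L-778123 in KURAMOCHI cells, so that comparison and everything that contains it is given for the actins as a description, with no test. RNA came from 2 established lines of serous ovarian carcinoma, OVSAHO and KURAMOCHI, each cultured with simvastatin or with L-778123, and each of the 4 groups had 2 one-color arrays. Simvastatin blocks HMG-CoA reductase and with it the supply of mevalonate and of all that is made from it, sterols and prenyl groups included. L-778123 blocks the farnesyl and geranylgeranyl transferases, the enzymes that attach prenyl groups to proteins, and the study set it against simvastatin to ask for effects of the statin other than on prenylation. The 8 arrays include no cells without drug, so a difference does not show which drug moved a gene, and the concentrations and times of these cultures are not given in the sources used here. Each line is a single line of cultured cells, grown in RPMI-1640 with fetal bovine serum.

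Actin is the monomer from which cells build their microfilaments. ACTB and ACTG1 code for the cytoplasmic beta and gamma actins, present in nearly every cell, ACTA2 and ACTG2 for the smooth muscle alpha and gamma actins, and ACTA1 and ACTC1 for the alpha actins of skeletal and cardiac muscle. ACTA2 is also a common marker of myofibroblasts. Transcription of actin genes is controlled by serum response factor (SRF) bound to a short element, the CArG box, together with the coactivators MRTFA and MRTFB, which are held by free actin monomer and released when monomer is taken up into filaments.

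The arrays lay on 1 slide, with the cell lines in separate rows of positions and the drugs at separate positions within them, so position and group cannot be told apart. Values are the log2 of the scanner's processed intensity relative to the 75th percentile of the array, which was 324 to 437, and 51.8% to 57.5% of probes were well above background. No spot was saturated. The replicate arrays are numbered in the labels with no statement of separate cultures, so p-values measure the spread between these arrays only, and 2 arrays per group limit the precision of every value. A probe was kept when 1 or more groups had it well above background on each of their arrays (33753 probes, of 16955 named genes). It was called when limma gave an adjusted p under 0.05 over all kept probes (Benjamini-Hochberg) and the difference was at least 2-fold. Of the actin probes, 6 of 7 were kept, each well above background on all 8 arrays, and the exception was ACTC1. In a bulk sample, fewer cells that express a gene and less RNA per cell cannot be told apart.

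The promoters of the isoforms are shown because the CArG box is where SRF meets these genes. RefSeq promoters of the GRCh38.p14 build gave 8 entries for 5 of the 6 genes, all but ACTB. Below are the 250 bases before the start site for the members whose levels differed most, on the strand of the gene, with the CArG box and any copy with 1 mismatch in capitals.
ACTG2 (chr2:73892758-73893007, plus strand): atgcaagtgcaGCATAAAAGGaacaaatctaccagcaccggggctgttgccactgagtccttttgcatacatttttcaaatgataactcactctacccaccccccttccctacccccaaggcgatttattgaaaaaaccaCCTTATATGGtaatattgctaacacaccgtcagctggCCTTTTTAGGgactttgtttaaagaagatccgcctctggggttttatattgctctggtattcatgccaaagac
ACTA2, second start (chr10:88952774-88953023, minus strand): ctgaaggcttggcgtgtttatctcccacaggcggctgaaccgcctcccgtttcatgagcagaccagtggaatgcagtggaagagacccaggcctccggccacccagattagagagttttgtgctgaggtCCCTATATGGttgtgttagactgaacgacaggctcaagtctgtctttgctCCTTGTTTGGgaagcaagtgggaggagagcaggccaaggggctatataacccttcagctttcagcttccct
ACTA1 (chr1:229434095-229434344, minus strand): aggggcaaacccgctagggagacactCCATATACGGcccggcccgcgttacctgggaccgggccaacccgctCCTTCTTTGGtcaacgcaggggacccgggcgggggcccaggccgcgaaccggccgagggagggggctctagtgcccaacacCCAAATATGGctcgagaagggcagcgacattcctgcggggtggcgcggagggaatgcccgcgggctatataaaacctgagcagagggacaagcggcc
ACTG1 (chr17:81512800-81513049, minus strand): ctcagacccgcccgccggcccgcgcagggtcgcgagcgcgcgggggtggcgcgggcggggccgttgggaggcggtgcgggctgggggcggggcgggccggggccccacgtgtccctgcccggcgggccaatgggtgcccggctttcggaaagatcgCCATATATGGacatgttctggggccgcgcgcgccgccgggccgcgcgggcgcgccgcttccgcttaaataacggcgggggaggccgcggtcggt
The ACTG2 window held the exact box at 110 and at 73 bases before the start, and a copy with 1 mismatch at 239. ACTA2 has 2 start sites among the entries. The window of the one printed held 2 copies with 1 mismatch, at 121 and at 71 bases, and the window of the other held none. ACTA1 held the exact box at 97 bases and 2 copies with 1 mismatch, at 224 and 178, and ACTG1 held 1 exact box at 94 bases. One of the 3 ACTC1 windows held the exact box, at 109 bases. The motif reads the same on both strands, so each site was counted once. Over all 35116 promoters of 27305 genes, 1.16% held the exact box in the same window and 16.8% held it or a copy with 1 mismatch, so a copy with 1 mismatch is common in windows of this length. The match describes letters only, and the arrays do not show which start site was used.

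**Figure D1:**
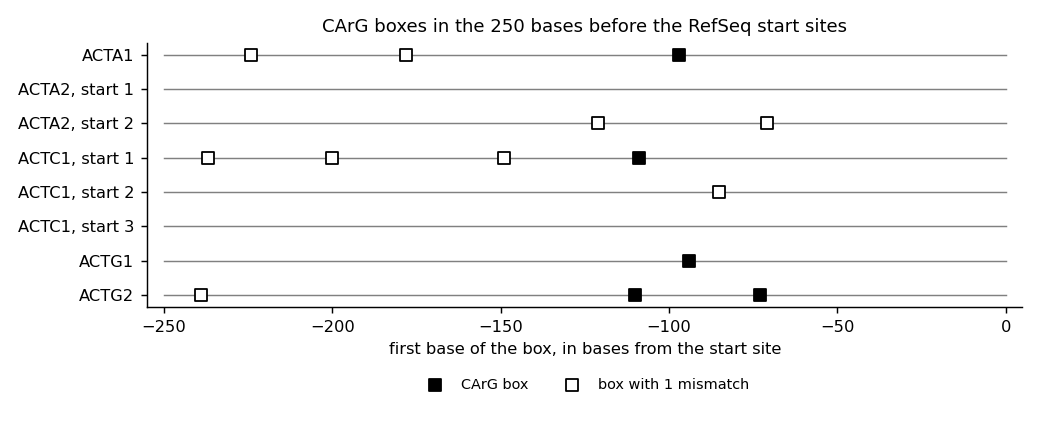
Positions of the CArG box (filled squares) and of copies with 1 mismatch (open squares) in the 250 bases before each RefSeq start site of the actin genes. The x axis gives the first base of the box in bases from the start site. ACTG2 has exact boxes at -110 and -73, while the ACTA2 start with any match has 2 copies with 1 mismatch, at -121 and -71.

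ACTA2, read by probe A_23_P150053, stood at 6.65 and 6.64 on the arrays of KURAMOCHI cells with L-778123 and at 1.62 and 1.49 with simvastatin. In OVSAHO cells it stood at -2.93 and -3.05 with simvastatin and at -3.12 and -3.30 with L-778123. KURAMOCHI cells were thus above OVSAHO cells under either drug, and the drugs were far apart in KURAMOCHI cells and close together in OVSAHO cells. In OVSAHO cells ACTA2 was dim, at 1.54 to 1.83 above the lowest log2 signal well above background on the same array. A fall as large as that in KURAMOCHI cells could therefore not have been seen in OVSAHO cells. The log2 difference between simvastatin and L-778123 was -5.09 (standard error 0.089) in KURAMOCHI cells, or 34.1-fold lower with simvastatin, given without a test. In OVSAHO cells it was 0.22 (standard error 0.089, 95% interval -0.01 to 0.44), which did not pass the threshold (limma, adjusted p = 0.0955). From highest to lowest, the groups were KURAMOCHI with L-778123, KURAMOCHI with simvastatin, and then the 2 OVSAHO groups, which did not differ beyond that interval.

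ACTG2, read by probe A_23_P39955, was lower with simvastatin in both lines. In KURAMOCHI cells it stood at 7.58 and 7.41 with L-778123 and at 1.62 and 1.51 with simvastatin, and in OVSAHO cells at 1.16 and 1.14 with L-778123 and at -1.56 and -1.60 with simvastatin. No group overlapped another, and the nearest neighbours were KURAMOCHI with simvastatin and OVSAHO with L-778123. The log2 difference was -5.93 (standard error 0.078) in KURAMOCHI cells, or 61.0-fold lower, given without a test. In OVSAHO cells ACTG2 fell by 2.73 on the log2 scale, or 6.63-fold (standard error 0.078, 95% interval -2.92 to -2.53, limma, adjusted p = 2.04e-05). It was called under each of the 19 alternatives run for that comparison, at -2.75 to -2.20.

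**Figure D2:**
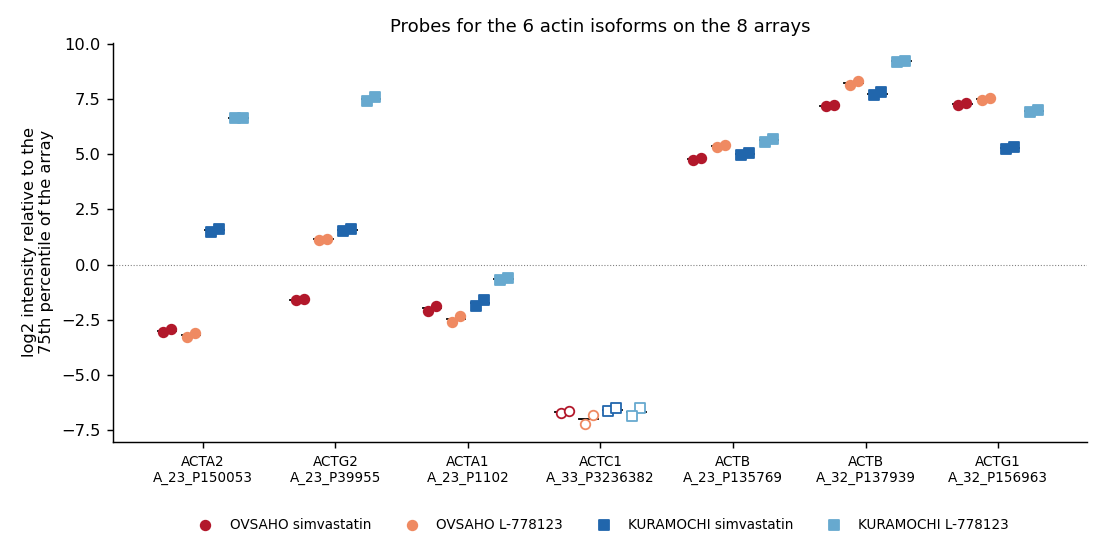
Log2 intensity relative to the 75th percentile of the array for the 7 actin probes on each of the 8 arrays. Points are single arrays, 2 per group, black ticks are group means, and open symbols mark probes not well above background. ACTA2 and ACTG2 span the widest range, from -3.30 to 6.65 and from -1.60 to 7.58, while ACTC1 is open on every array.

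The striated muscle actins were dim. ACTC1 (A_33_P3236382) stood at -7.22 to -6.51 and was not well above background on any of the 8 arrays. Relative to the lowest signal well above background on the same array, its log2 value was -2.18 to -2.07. It has no bound and no fold in any comparison. ACTA1 (A_23_P1102) stood at -2.10 and -1.87 in OVSAHO cells with simvastatin and at -2.31 and -2.61 with L-778123. In KURAMOCHI cells it stood at -1.62 and -1.88 with simvastatin and at -0.72 and -0.59 with L-778123. Its highest group was KURAMOCHI with L-778123, and in neither line did the drugs overlap. ACTA1 was 0.47 higher with simvastatin in OVSAHO cells (standard error 0.149, 95% interval 0.11 to 0.84, limma, adjusted p = 0.0434), under the fold threshold, and its log2 difference in KURAMOCHI cells was -1.10 (standard error 0.149), given without a test. ACTA1 and ACTA2 stood higher with simvastatin on both OVSAHO arrays and lower on both KURAMOCHI arrays, although the ACTA2 difference in OVSAHO cells did not pass the threshold.

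The cytoplasmic actins were among the brighter probes. The ACTB probe A_32_P137939 stood at 7.19 and 7.23 in OVSAHO cells with simvastatin and at 8.13 and 8.30 with L-778123. In KURAMOCHI cells it stood at 7.80 and 7.70 with simvastatin and at 9.24 and 9.19 with L-778123. It fell by 1.01 on the log2 scale in OVSAHO cells, or 2.01-fold (standard error 0.079, limma, adjusted p = 3.19e-04), just past the fold threshold. Its log2 difference in KURAMOCHI cells was -1.46. The call in OVSAHO cells was lost at -0.99 without OVSAHO simvastatin replicate 1 and at -0.92 without OVSAHO L-778123 replicate 2, while the adjusted p stayed below 0.05.

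The other ACTB probe, A_23_P135769, had the same direction and a smaller size. It stood at 4.75 and 4.82 with simvastatin and at 5.42 and 5.34 with L-778123 in OVSAHO cells, and at 4.98 and 5.05 against 5.71 and 5.56 in KURAMOCHI cells. The difference was -0.59 in OVSAHO cells (standard error 0.077, limma, adjusted p = 0.00189), under the fold threshold, and -0.62 in KURAMOCHI cells. The probes of ACTB therefore disagreed in size and not in direction, and the levels of different probes are not compared here.

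ACTG1, read by A_32_P156963, stood at 7.25 and 7.35 with simvastatin and at 7.44 and 7.56 with L-778123 in OVSAHO cells. In KURAMOCHI cells it stood at 5.32 and 5.23 with simvastatin and at 7.0 and 6.91 with L-778123, so that the lowest group was KURAMOCHI with simvastatin. The log2 difference was -0.20 in OVSAHO cells (standard error 0.076, 95% interval -0.39 to -0.02, limma, adjusted p = 0.0725), which did not pass the threshold. In KURAMOCHI cells it was -1.68 (standard error 0.076), or 3.20-fold lower, given without a test.

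In OVSAHO cells, 2 of the 6 actin probes were called lower with simvastatin, ACTG2 and 1 of the ACTB probes, against 6.19% of all kept probes. None of the 6 was called higher, against 4.77% of all kept probes, and 4 of 6 had an adjusted p under 0.05, against 48.1%. In KURAMOCHI cells, 5 of the 6 probes were at least 2-fold lower, where 4.15% of all kept probes were, a count that the choice of the group used and from which nothing is read. The median over all named genes was 0.01 in each line. The difference of the drug contrast between the lines, OVSAHO minus KURAMOCHI, contains the KURAMOCHI contrast and is also given with no test. It was 5.31 for ACTA2, 3.20 for ACTG2, 1.57 for ACTA1, 1.47 for ACTG1, and 0.46 and 0.03 for the ACTB probes. Thus 4 of 6 were at least 2-fold higher, where 5.36% of all kept probes were, and nothing is read from this count either.

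**Figure D3:**
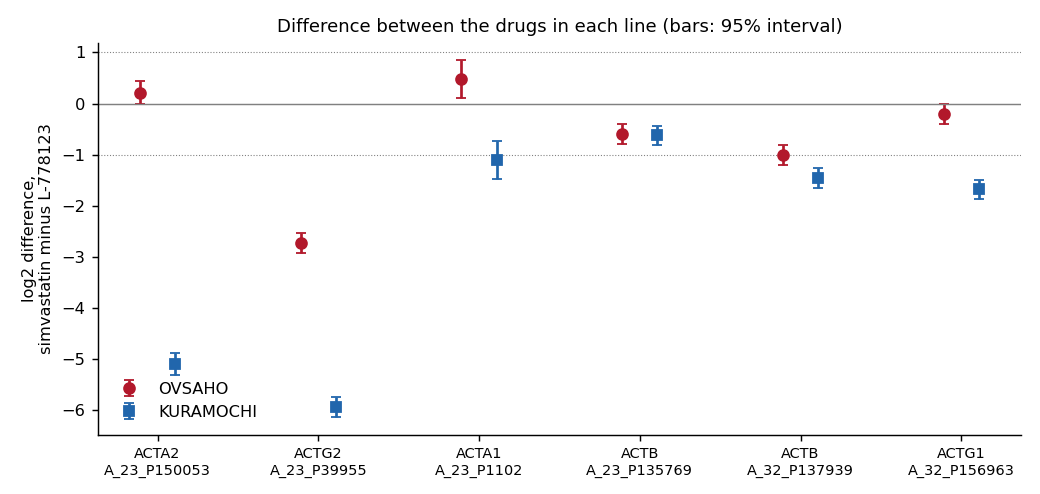
Log2 difference between simvastatin and L-778123 for the 6 actin probes kept, in OVSAHO (circles) and KURAMOCHI (squares) cells, with bars for the 95% interval of the fit and dotted lines at a 2-fold difference. ACTG2 and both ACTB probes lie below 0 in both lines, while ACTA2 and ACTA1 lie above 0 in OVSAHO cells (0.22 and 0.47) and below it in KURAMOCHI cells (-5.09 and -1.10). The ACTA2 interval in OVSAHO cells includes 0.

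The lines themselves differed in their actins. Averaged over the drugs, ACTA2 was 147-fold lower in OVSAHO than in KURAMOCHI cells (log2 difference -7.20, standard error 0.063), and its log2 difference was -6.02 under normexp. ACTG2 was 26.9-fold lower (difference -4.75, standard error 0.055). Both are given without a test, since the KURAMOCHI arrays that picked the group also enter this mean. A strong fall in KURAMOCHI cells needs a high level there with L-778123. ACTG1 was the exception in direction, 1.28 higher in OVSAHO cells (standard error 0.054, limma, adjusted p = 3.86e-06). ACTA1 was 2.03-fold lower in OVSAHO cells (difference -1.02, standard error 0.105, limma, adjusted p = 2.12e-04). Both ACTB probes were lower in OVSAHO cells, at -0.24 and -0.77, under the fold threshold. In all, 3 of 6 probes were called lower and 1 higher in OVSAHO cells, against 16.1% and 17.5% of all kept probes, and all 6 had an adjusted p under 0.05, against 77.7%. ACTA2 and ACTG2 are among the 3 and among the 6, so nothing is read from the count of lower probes or from that of adjusted p.

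The line difference within each drug is given without a test, since its change between the drugs is the contrast that picked the group. Under L-778123 it was -9.86 for ACTA2, -6.35 for ACTG2, -1.81 for ACTA1 and 0.55 for ACTG1. Under simvastatin it was -4.55 for ACTA2, -3.15 for ACTG2, -0.23 for ACTA1 and 2.02 for ACTG1. ACTA2 and ACTG2 kept KURAMOCHI above OVSAHO under either drug, and the ACTA1 and ACTG1 differences had the direction of the mean under both. The ACTA1 call was lost without OVSAHO simvastatin replicate 1 (-0.96), OVSAHO L-778123 replicate 2 (-0.94), KURAMOCHI simvastatin replicate 1 (-0.95) or KURAMOCHI L-778123 replicate 2 (-0.99), and under normexp (-0.74). With quantile normalization and in the deposited table the ACTB probe A_32_P137939 was called lower in OVSAHO cells, at -1.06 in each.

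Transcripts that resemble the cytoplasmic actins were read on the same arrays. ACTG1P4, ACTG1P17 and ACTG1P25 are pseudogenes of ACTG1, and POTEF and POTEI code for proteins with an actin part. They were picked by name with the values of the actins known. No probe sequences were used here, so whether these probes also bind ACTB or ACTG1 RNA cannot be told from the arrays, and the sequences of actin genes are near-identical over long stretches. In KURAMOCHI cells, 4 of their 6 probes were called lower with simvastatin, against 3.55% of all kept probes, and in OVSAHO cells 0 of 6 were called. POTEF (A_24_P59220) stood at 5.77 and 5.80 in OVSAHO cells with simvastatin and at 6.03 and 6.17 with L-778123, and at 3.62 and 3.51 against 6.20 and 6.10 in KURAMOCHI cells. As for ACTG1, the low group was KURAMOCHI with simvastatin. The KURAMOCHI difference was -2.59 for POTEF, -2.06 for POTEI (A_24_P410017), -1.99 for ACTG1P25 and -1.66 for ACTG1P4 (limma, adjusted p at most 0.00144). In OVSAHO cells these 4 probes had differences of -0.45 to -0.11. The difference between the lines was called higher for the same 4 of 6 probes, against 3.86% of all kept probes (22.9% had an adjusted p under 0.05).

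The remaining actin-like probes behaved otherwise. A second POTEI probe, A_24_P825874, had a difference of -0.71 in OVSAHO and -0.72 in KURAMOCHI cells, and was 3.19 higher in OVSAHO than in KURAMOCHI cells over both drugs (limma, adjusted p = 6.97e-07). ACTG1P17 was dim, at -3.65 to -2.56, and its difference did not pass the threshold in either line (-0.48 and 0.44). ACTA2-AS1, a transcript annotated antisense to ACTA2, did not follow ACTA2. Its probe A_33_P3255165 stood at -3.003 to -2.404 over the 8 arrays, with differences of 0.17 in OVSAHO and 0.08 in KURAMOCHI cells (limma, adjusted p = 0.559 and 0.813), and its other probe was not well above background on any array.

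**Figure D4:**
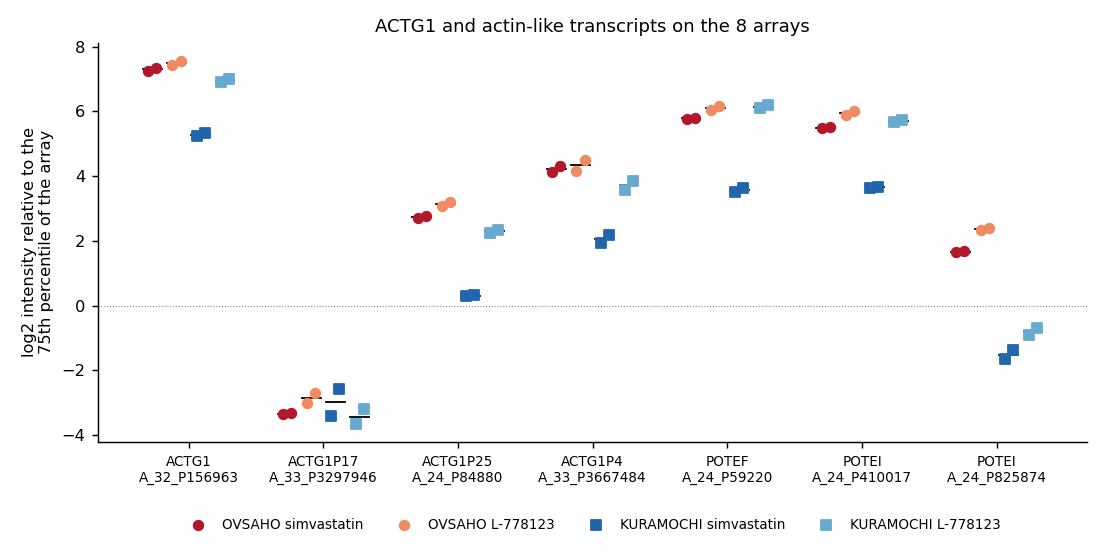
Log2 intensity relative to the 75th percentile of the array for ACTG1 and the 6 actin-like probes kept, on each of the 8 arrays (points, with black ticks for group means). KURAMOCHI cells with simvastatin are the lowest group for ACTG1, ACTG1P25, ACTG1P4, POTEF, 1 POTEI probe (A_24_P410017) and the second POTEI probe, and ACTG1P17 shows no such order.

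The regulators of actin transcription were not called between the drugs in either line, although some had differences under the fold threshold that passed in limma. Of 10 genes, 7 were kept, and 0 were called in OVSAHO cells and 0 in KURAMOCHI cells, against 5.89% of genes called lower and 5.69% higher in OVSAHO and 2.95% and 2.44% in KURAMOCHI cells. For 7 genes, 0 calls lie near these shares, so nothing is read from the counts. SRF itself had a log2 difference of -0.13 in OVSAHO cells and of -0.78 in KURAMOCHI cells (limma, adjusted p = 0.417 and 0.00733), the second under the fold threshold. MRTFA had 0.16 and -0.23, and MRTFB -0.07 and -0.18 (limma, adjusted p of 0.0552 to 0.386 over the 4 values). ELK1 and ELK4, partners of SRF at immediate early genes, had -0.28 and 0.24 in OVSAHO and 0.30 and 0.14 in KURAMOCHI cells. ELK1 passed under the fold threshold in both lines (limma, adjusted p = 0.00926 and 0.0121), and ELK4 in OVSAHO cells (limma, adjusted p = 0.0145). SCAI, an inhibitor of MRTF, had 0.01 and -0.04, and MICAL2, an enzyme that oxidizes nuclear actin, had -0.24 and -0.45. The MICAL2 differences also passed under the fold threshold (limma, adjusted p = 0.0120 and 0.00262). MYOCD, the myocardin coactivator of smooth and cardiac muscle, and ABRA were not well above background on any array, and no probe was named ELK3. Between the lines, ELK1 alone was called, 1.17 higher in OVSAHO cells, where 16.4% of genes were called lower and 18.3% higher.

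Genes listed as targets of SRF that depend on MRTF were read next. The list was written with earlier results of these data known, and dependence on MRTF was not tested. The actins were left out of this list, of which 20 of 22 genes were kept. In KURAMOCHI cells, 13 were called lower and 0 higher with simvastatin, against 2.95% and 2.44% of all genes, with a median of -1.39 against 0.01 over all genes. In OVSAHO cells, 6 were called lower and 3 higher, against 5.89% and 5.69% of all genes, with a median of -0.40 against 0.01. TAGLN, which codes for the actin-binding protein transgelin, fell in both (-1.71 in OVSAHO and -2.95 in KURAMOCHI cells), as did MYL9, a regulatory light chain of myosin (-2.04 and -1.89, limma, adjusted p at most 8.21e-05). CCN1 and CCN2, secreted matricellular proteins, fell as well (-2.32 and -3.63 in OVSAHO, -1.81 and -1.79 in KURAMOCHI cells). CALD1, which codes for the actin-binding protein caldesmon, had -2.44 and -1.41. TPM1, a tropomyosin, named after its values were seen, had -1.73 and -1.68. LMOD1 and CNN1, smooth muscle proteins that bind actin, had opposite directions in the lines. LMOD1 had 2.58 in OVSAHO and -2.66 in KURAMOCHI cells, and CNN1 had 1.11 and -1.90 (limma, adjusted p at most 9.98e-04). TGFB1I1, the remaining gene called higher in OVSAHO cells and named for that reason, had 2.21 and -1.09. Between the lines, 9 of the 20 were called lower in OVSAHO cells and 0 higher, against 16.4% and 18.3% of all genes. Under normexp the CNN1 difference was 0.67 in OVSAHO cells, below the fold threshold, and -1.13 in KURAMOCHI cells. It was -1.96 for CCN2 in OVSAHO cells, and 1.71 and -2.01 for LMOD1.

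The genes listed as targets of SRF that depend on the ternary complex factors are mostly immediate early genes, and 7 of 9 were kept. That dependence was not tested either. In OVSAHO cells 2 were called higher, against 5.69% of all genes, and 0 lower, against 5.89%, with a median of 0.51. In KURAMOCHI cells 3 were called higher, against 2.44% of all genes, and 0 lower, against 2.95%, with a median of 0.99. JUNB rose by 1.92 in OVSAHO cells (limma, adjusted p = 2.43e-05), and its KURAMOCHI difference of 0.99 was just under the fold threshold. EGR1 rose by 1.06 and 1.32, the first at 0.90 and not called under normexp, and FOS rose by 1.30 in KURAMOCHI cells and had 0.45 in OVSAHO cells. EGR2 was not well above background on either KURAMOCHI array with L-778123, so its rise has only a lower bound, 2.13-fold, which holds for the main processing alone. It was called higher in KURAMOCHI cells. That call was lost without KURAMOCHI simvastatin replicate 2 (1.67), without KURAMOCHI L-778123 replicate 1 (1.56), under normexp (0.52), and with no filter, with KURAMOCHI arrays alone or by analysis of variance.

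**Figure D5:**
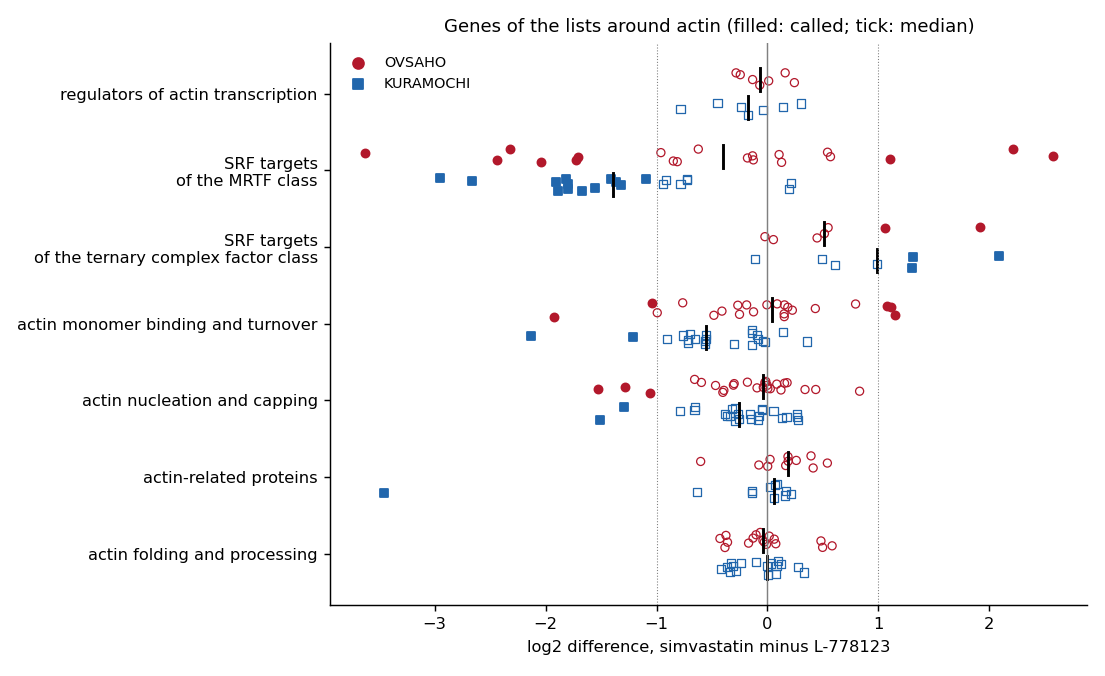
Log2 difference between simvastatin and L-778123 for each kept gene of 7 lists, in OVSAHO (circles) and KURAMOCHI (squares) cells. Filled symbols are called genes, black ticks are list medians and dotted lines mark a 2-fold difference. The MRTF-class list has medians of -0.40 and -1.39, and no gene of the regulators or of the folding list is filled.

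Of 22 genes for actin monomer binding and turnover, all kept, 2 were called lower and 3 higher in OVSAHO cells, against 5.89% and 5.69% of all genes, and 2 lower and 0 higher in KURAMOCHI cells, against 2.95% and 2.44%, with medians of 0.04 and -0.55. GSN, which severs filaments, rose by 1.12 in OVSAHO cells and had 0.14 in KURAMOCHI cells. SSH3, a cofilin phosphatase, rose by 1.15 and CORO1B by 1.08 in OVSAHO cells. WDR1, a partner of cofilin, fell by 1.21 in KURAMOCHI cells and had 0.00 in OVSAHO cells. TMSB15A, a thymosin that binds monomer, fell by 1.92 in OVSAHO cells, and CAP2, a cyclase-associated protein and the other gene called lower there, named for that reason, fell by 1.04. TMSB15A was not well above background on either KURAMOCHI array with simvastatin and was so on 1 of the 2 with L-778123, so no fold is given there, although it is counted among the 2 genes called lower. SSH3 and DAAM2 in OVSAHO cells fell under the fold threshold under normexp, at 0.91 and -0.81.

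Of 26 genes for nucleation and capping, 25 were kept, and 3 were called lower in OVSAHO and 2 in KURAMOCHI cells, against 5.89% and 2.95% of all genes, with none higher, against 5.69% and 2.44%. The same shares of all genes stand beside the folding and actin-related lists. The formins DAAM1 and DIAPH3 were called in both, at -1.53 and -1.28 in OVSAHO and -1.29 and -1.51 in KURAMOCHI cells (limma, adjusted p at most 2.24e-04). DAAM2 fell by 1.06 in OVSAHO cells. None of the 17 kept genes for folding and processing of actin was called in either line, with the chaperonin subunits among them (medians of -0.04 and -0.01). Of 11 kept genes for actin-related proteins, 1 was called between the drugs. It was ACTBL2, which codes for a further actin, kappa-actin, and it fell by 3.46 in KURAMOCHI cells (standard error 0.068, limma, adjusted p = 4.60e-05). Its difference in OVSAHO cells was -0.60 (limma, adjusted p = 0.00116), and ACTBL2 was 1.20 lower in OVSAHO than in KURAMOCHI cells over both drugs.

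The genes whose levels followed ACTA2 most closely over the 8 arrays were PDLIM7 (Pearson r = 0.998), PDLIM5, KRT80, ARPC5 and CARMN. These values are a description over 4 groups of 2 arrays each, which share line and drug. PDLIM7 and PDLIM5 code for PDZ and LIM domain proteins of actin filaments, KRT80 for a keratin, ARPC5 for a subunit of the Arp2/3 complex, and CARMN is a long noncoding RNA known from smooth muscle. The differences in KURAMOCHI cells were -3.34 for CARMN, -2.42 for KRT80, -1.30 for PDLIM7, -0.87 for PDLIM5 and -0.66 for ARPC5, and in OVSAHO cells all 5 lay between -0.21 and 0.14. For ACTG2, which was lower in both lines, the closest were RND3 (r = 0.997), POP1, PSMB1, PC and SH3RF1. Their differences ran from -0.95 to -0.21 in OVSAHO and from -1.76 to -0.46 in KURAMOCHI cells.

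Markers of the label were measured in both lines, at levels that differed between them. Of the 14 listed for ovarian serous carcinoma, 6 were called higher and 1 lower in OVSAHO than in KURAMOCHI cells, against 18.3% and 16.4% of all genes. The largest differences were 5.78 for CDH1, 5.40 for FOLR1, 4.45 for KRT7 and 4.31 for MUC16. All 14 genes listed for ovarian serous carcinoma, PAX8, WT1 and EPCAM among them, were well above background in every group, with levels that summed to 618 to 1226 times the 75th percentile. Beside the smooth muscle actins, markers of smooth muscle were also measured. Of 6 on the array, 3 were well above background in both OVSAHO groups (DES, LMOD1 and CNN1), 4 in KURAMOCHI cells with simvastatin (SYNPO2 in addition) and 5 with L-778123 (MYH11 in addition). Their summed level was 1.66 to 1.68 in OVSAHO cells with L-778123, 2.44 to 2.77 with simvastatin, 3.77 to 3.87 in KURAMOCHI cells with simvastatin and 5.41 to 5.47 with L-778123. LMOD1 and CNN1 are also in the MRTF-class list above. MYOCD, which defines the smooth muscle program, was not well above background on any array, and no probe was named SMTN. Of 9 fibroblast markers, THY1 alone was well above background in both OVSAHO groups, with COL1A1 and COL3A1 in addition in both KURAMOCHI groups, with summed levels of 0.42 to 0.88 and of 17.9 to 21.8. The other 6 reached that level on both arrays of no group. Of 9 skeletal and cardiac muscle markers, 3 to 4 were well above background (TNNC1, TNNI3 and MYOG in each group, and TNNT2 in all but OVSAHO cells with simvastatin), with summed levels of 1.601 to 1.699 in OVSAHO cells with simvastatin, 3.47 to 3.75 with L-778123, 11.54 to 12.4 in KURAMOCHI cells with simvastatin and 25.0 to 25.1 with L-778123. Of 6 immune and endothelial markers, 4 were well above background in each group, with summed levels of 1.26 to 2.27. The part of these markers in the levels of ACTA2 and ACTG2 was not tested.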

How the data were processed

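Total RNA of OVSAHO and KURAMOCHI cells was measured on 8 one-color SurePrint G3 arrays, grouped by the labels. The authors extracted the images with Agilent Feature Extraction 11.5.1.1 and deposited, per spot, the processed intensity, corrected for background within the array and not normalized between arrays, with its flags. They also deposited a table of intensity on a linear scale, which was quantile normalized (its 75th percentile was 384 on every array) and was used as an alternative. Control spots and outlier spots (58 to 99 per array) were left out, each array was scaled by its 75th percentile and put on the log2 scale, and spots of a probe were averaged. Identifiers were named through a RefSeq table (24768 of 50069), from which only names were taken. A gene with several probes took the brightest.

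limma 3.58.1 in R 4.3.3 fitted 1 mean per group with a spread shared by the 4 groups. The fit was tested on simulated data with known changes. Named genes were all actin probes, up to 4 called genes with the largest change per list and comparison, the regulators, and the 5 genes most like ACTA2 and ACTG2. The actins, the lists and these rules were chosen with earlier results of these data known. The replicate numbers do not pair the arrays (correlation of deviations 0.00 to 0.06). Figures were drawn with matplotlib in Python. Alternatives were other filters, background corrections, scalings, tests and thresholds, and each array left out. Some genes and 1 gene list are not reported here.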

Additional observations from a re-analysis of the deposited data

Results flagged for a closer look

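For ACTA2 and ACTA1, both simvastatin arrays stood above both L-778123 arrays in OVSAHO cells and below them in KURAMOCHI cells. The ACTA2 difference in OVSAHO cells, 0.22, did not pass the threshold (95% interval -0.01 to 0.44), so opposite directions are not established for ACTA2. The drug contrast differed between the lines (OVSAHO minus KURAMOCHI, log2) by 5.31 for ACTA2 and 1.57 for ACTA1. These differences were not tested, since the KURAMOCHI contrast picked the group.

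Among actin-like transcripts, the difference between the lines passed the test (limma, adjusted p of 3.63e-04 to 0.00786) for POTEF at 2.27, for POTEI probe A_24_P410017 at 1.61, for ACTG1P25 at 1.597 and for ACTG1P4 at 1.55. Those probes were picked with the actin values known, and whether they also bind ACTB or ACTG1 RNA cannot be told. Their p-values are therefore no separate support for a difference in the actins. The same test passed for MRTF-class targets, at 5.24 for LMOD1, 3.01 for CNN1, 1.24 for TAGLN, -1.84 for CCN2, -1.02 for CALD1 and -0.51 for CCN1 (limma, adjusted p of 4.55e-04 to 0.0157). Under normexp the value for CCN2 was -0.13 (limma, adjusted p = 0.424) and no longer passed, and those for LMOD1 and CNN1 were 3.72 and 1.79. Among the immediate early genes it passed at 0.93 for JUNB and -0.86 for FOS, and among regulators at 0.39 for MRTFA and -0.59 for ELK1 (limma, adjusted p at most 0.0421). For genes of turnover and nucleation the values were 0.79 for SSH3, 0.98 for GSN, 1.22 for CORO1B, 1.21 for WDR1 and -0.69 for DAAM2, and for ACTBL2 2.86 (limma, adjusted p at most 0.0178). With no filter on dim probes CCN1, DAAM2 and MRTFA no longer passed. MRTFA also failed with any single array left out and with the replicate number as a block, CCN1 without OVSAHO simvastatin replicate 1 or KURAMOCHI L-778123 replicate 2, and DAAM2 without either of these, OVSAHO simvastatin replicate 2 or OVSAHO L-778123 replicate 1. The listed genes, the regulators apart, were named for a called drug contrast in OVSAHO or KURAMOCHI cells, which is part of this difference. A pass was thus favored in advance and is no separate support for a difference between the lines. Over all kept probes, 22.9% had an adjusted p under 0.05 in this comparison. With 2 arrays per group, no array could be tested as an outlier.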

How the results depend on the processing

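ACTG2 in OVSAHO cells and ACTG1 between the lines kept their calls under all alternatives run. So did ACTA2 and ACTG2 between the lines, where no test is read, with ACTA2 at -7.25 to -6.02. The count of actin probes called in OVSAHO cells, 2, became 1 with the 75th percentile over bright probes and 4 with no fold threshold, and was 1 to 2 with single arrays left out. Over the same settings all probes ran from 3477 to 3719, 1800 to 1898 and 11235 to 11371, and the lists from 18 to 21 and 20 to 22. In the other comparisons of the actins the count was within 1.5 times (3 to 4 called between the lines, 4 to 5 past the fold in KURAMOCHI cells and 4 for the difference between the lines, with single arrays left out). Over all probes, 3700 were called in OVSAHO cells, 1889 in KURAMOCHI cells and 11366 between the lines. These became 2186, 945 and 6871 with probes well above background on all arrays, 1556, 657 and 6441 with normexp, 8019, 4534 and 17435 with a fold threshold of 1.5, and 16222, 10588 and 26223 with none. The methods' two-way analysis of variance called 1113 in KURAMOCHI cells. Over the 7 lists, 19 genes in OVSAHO and 21 in KURAMOCHI cells became 30 and 38 with a fold threshold of 1.5 and 57 and 62 with none. Single values near 0 changed sign. In OVSAHO cells WDR1 was 0.012 with bright probes, SCAI -0.018 under normexp and -0.086 to 0.11 with single arrays left out, ACTG1P17 0.018 under normexp, and ACTG1P4 -0.28 to 0.055 with single arrays left out. For the difference between the lines, POTEI probe A_24_P825874 was -0.17 under normexp, and with single arrays left out that probe was -0.13 to 0.15 and SCAI -0.044 to 0.15. TMSB15A, dim in KURAMOCHI cells, changed sign by more. Its difference between the lines under normexp was -1.503 (limma, adjusted p = 3.1e-06). Between the lines ACTG1P17 was -0.099 to 0.33 with single arrays left out. The call of CCN2 in KURAMOCHI cells was lost by analysis of variance, and that of TMSB15A under normexp (-0.39). The causes were not tested. With the replicate number as a block, 3686, 1854 and 11364 probes and 2 and 4 actin probes were called, and no call of an actin probe changed. Signal over background limits ACTC1, which cannot be read in any group.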

Other observations

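ACTB is often used to scale RT-PCR values, so 10 other genes in common use for this were read, a list written after the ACTB values were seen. None was called between the drugs in either line, against 5.89% of genes lower and 5.69% higher in OVSAHO and 2.95% and 2.44% in KURAMOCHI cells. They were not all unchanged. HPRT1, PGK1 and TBP in OVSAHO cells and PGK1, YWHAZ, GAPDH and HPRT1 in KURAMOCHI cells had smaller differences that passed in limma (adjusted p at most 0.0237). Their log2 differences ran from -0.86 (HPRT1) to 0.18 (RPLP0) in OVSAHO cells and from -0.52 (PGK1) to 0.03 (SDHA) in KURAMOCHI cells. The ACTB probes had -0.59 and -1.01 in OVSAHO and -0.62 and -1.46 in KURAMOCHI cells. In KURAMOCHI cells both ACTB probes lay below all 10 genes, and in OVSAHO cells 1 of the 2 did. These orders were not tested and were close. In KURAMOCHI cells -0.62 (standard error 0.077) stood beside -0.52 for PGK1 (standard error 0.053). In OVSAHO cells -1.01 (standard error 0.079) stood beside -0.86 for HPRT1 (standard error 0.073). GAPDH had 0.02 and -0.34, and RPLP0 0.18 and 0.02.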
